A study of Danio rerio with 34 samples.

Results

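The p53 response genes described here are mdm2, cdkn1a, ccng1, bbc3, baxa, casp8 and gadd45aa, taken by name as a check for a stress response to morpholino injection. Each of the 7 genes had 1 RefSeq transcript in the RNA-seq tables, so that 7 of the 13856 transcripts listed in at least 1 library are followed, and all 7 were among the 9945 transcripts that passed a mean of 1 RPKM over the libraries (a read count scaled by transcript length and library size) and were tested. The series holds 34 samples of zebrafish embryos of strain AB, of which the 10 RNA-seq libraries carry most of the comparisons.

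In the RNA-seq experiment, elavl1a morphants of 4 and of 6 hpf (hours post fertilization) were set against control embryos of the same ages, with control embryos of 2 hpf as an earlier stage, and each group had 2 libraries. The morphants had received a translation-blocking elavl1a morpholino, an antisense oligonucleotide that covers the start codon, at the one-cell stage. The control RNA-seq embryos are labelled only as normal embryos, and the labels do not say whether they were injected. The study's methods name a control morpholino injected at the same stage, but no source used here says whether these embryos received it, so the elavl1a knockdown, the injection and the oligonucleotide itself cannot be told apart. The libraries were made from poly(A)-selected RNA of whole embryos, so that changes in the amount of an mRNA and in its poly(A) tail cannot be told apart. Likewise, fewer cells of a type and less RNA per cell cannot be told apart in such bulk samples. In a second assay, icSHAPE, the reagent NAI-N3 marks flexible nucleotides against a DMSO background. It covered elavl1a morphants of 4 and 6 hpf and a wild-type series of 0, 0.4, 1, 2, 4 and 6 hpf. There was 1 pooled profile for each. The sample titles do not say whether morphant and wild-type profiles were made together, so treatment and batch cannot be told apart in them.

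The transcription factor p53 is held at a low level by Mdm2, which binds it and marks it for degradation. When DNA damage or another stress releases p53, it activates genes that stop the cell cycle, such as cdkn1a, and genes that start cell death through the mitochondria, such as bbc3, and it also activates mdm2, which closes a feedback loop. In zebrafish, morpholinos are known to activate p53 in some cases without regard to their target, and the transcripts of this response are often measured as a control. Because the embryo transcribes little before the mid-blastula transition, such a response can appear only once the zygotic genome is active, and transcripts present earlier come from the mother.

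Depth was high and similar, with 61776396 to 104388477 uniquely mapped reads per library, and replicates differed by a biological coefficient of variation of 0.0268 in the fit. Nothing in the labels says from how many matings a pair of libraries came, so the p-values measure the spread between these libraries, which may be partly technical. elavl1a mRNA stood at 205 and 204 RPKM in morphants at 4 hpf, against 202 and 200 RPKM in control embryos, and at 343 and 342 RPKM in morphants at 6 hpf, against 298 and 299 RPKM in control embryos. A morpholino that blocks translation need not lower its target mRNA, so these levels do not check the labels. The later tissues were close to absent, since the summed level of myod1, elavl3, neurog1, mylpfa and hbbe1.1, markers of differentiated cells, lay between 1.22 and 2.97 RPKM in all 10 libraries.

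At 4 hpf, 6 of the 7 genes were higher in elavl1a morphants than in control embryos at an adjusted p below 0.05, and none was lower. Of all transcripts tested, 39.5% were called higher and 22.9% lower, 62.5% in either direction. With a change of more than 2-fold required as well, cdkn1a and bbc3 remained, where 1.45% of all transcripts were that much higher and 2.27% that much lower. At 6 hpf all 7 genes were higher in morphants, where 40.6% of all transcripts were called higher and 39.0% lower, 79.6% in either direction. Of these genes bbc3, gadd45aa and cdkn1a passed 2-fold, where 10.3% of all transcripts were that much higher and 8.62% that much lower. The median log2 fold change of the 7 genes was 0.29 at 4 hpf and 0.85 at 6 hpf, where the median over all transcripts tested was 0.07 and 0.01. The genes were chosen with earlier results of these data known, so these counts and medians are no independent check. All p-values come from edgeR's quasi-likelihood test on unique read counts, scaled by library totals, with Benjamini-Hochberg adjustment over all 9945 transcripts.

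**Figure D1:**
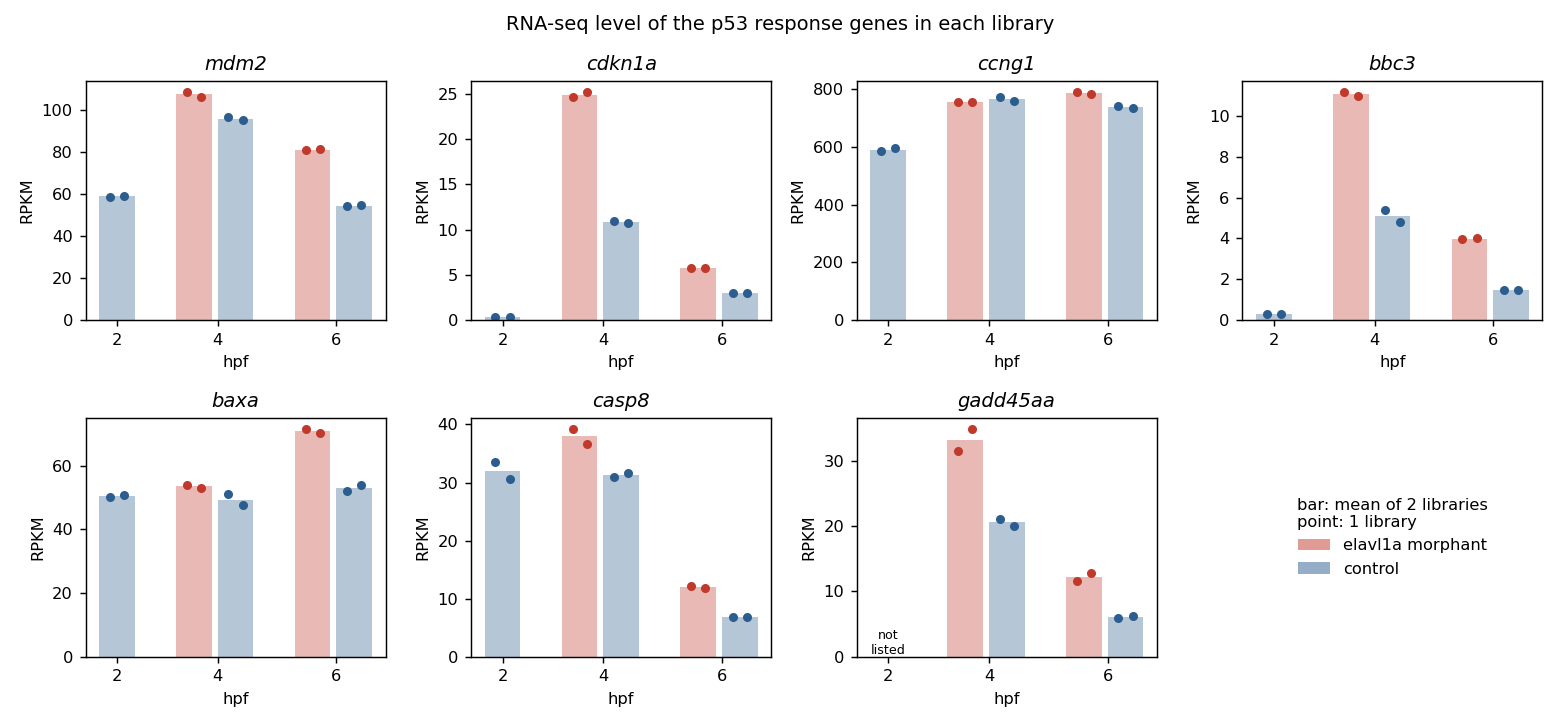
RNA-seq level in RPKM (y axis, from 0) of each of the 7 genes at 2, 4 and 6 hpf (x axis), with elavl1a morphants in red and control embryos in blue; bars are means of 2 libraries and points are single libraries. The morphant points lie above the control points of the same age in every panel at 6 hpf, and in every panel except ccng1 at 4 hpf. How many of all transcripts separate in this way was not counted.

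These calls depend in part on the scaling, because a small shift is enough to pass the test at this depth. With library totals 3933 transcripts were called higher and 2278 lower in morphants at 4 hpf, but with TMM scaling 2977 were higher and 3076 lower, and with DESeq2 2573 and 3163. The changes of cdkn1a, bbc3, gadd45aa, casp8 and mdm2 kept their direction and call in both comparisons under these scalings, while those of baxa and ccng1 did not throughout.

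The first role among these genes is the regulation of p53 itself. mdm2 (NM_131364), which encodes the ubiquitin ligase of p53 and is at the same time its target, had 109 and 107 RPKM in morphants at 4 hpf, against 96.7 and 95.4 RPKM in control embryos. At 6 hpf it had 81.2 and 81.5 RPKM in morphants, against 54.2 and 54.9 RPKM in control embryos. The groups did not overlap at either age, and the difference widened. How many of all transcripts tested were without overlap was not counted. The lack of overlap, here and for the genes below, therefore shows nothing particular to these genes. The log2 fold change was 0.16 ± 0.02 (SE) at 4 hpf, with an adjusted p of 7.14e-06 in edgeR, and 0.59 ± 0.03 at 6 hpf, with an adjusted p of 1.74e-14. The change at 4 hpf was smaller when scaled by TMM (0.09) or DESeq2 (0.07), at adjusted p of 0.0027 and 0.0279.

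Of the genes that act in growth arrest, cdkn1a (NM_001128420), which encodes the cyclin-dependent kinase inhibitor p21, changed the most at 4 hpf. It had 24.7 and 25.1 RPKM in morphants, against 10.9 and 10.8 RPKM in control embryos, and at 6 hpf 5.80 and 5.79 RPKM in morphants, against 3.00 and 2.96 RPKM in control embryos. The morphant libraries were the higher pair at both ages without overlap, and the replicates of a group differed by far less than the groups. The log2 fold change was 1.25 ± 0.07 at 4 hpf (adjusted p 3.29e-12, edgeR) and 1.04 ± 0.08 at 6 hpf (adjusted p 3.57e-10). At 4 hpf the gene ranked 59 from the top of the 9945 transcripts by fold change and at 6 hpf it ranked 950. Its change at 6 hpf dropped just under 2-fold with TMM (0.97) and DESeq2 (0.94), and its lowest value over all alternatives was 0.77. As a ratio of mean RPKM it was 1.94 at 6 hpf, also under 2-fold.

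gadd45aa (NM_200576), a member of the growth arrest and DNA damage-inducible family, had 31.5 and 34.9 RPKM in morphants at 4 hpf, against 21.1 and 20.1 RPKM in control embryos. The level at 6 hpf was 11.6 and 12.9 RPKM in morphants, against 5.92 and 6.20 RPKM in control embryos. Again the pairs did not overlap. The log2 fold change was 0.73 ± 0.08 at 4 hpf (adjusted p 1.67e-07, edgeR) and 1.12 ± 0.09 at 6 hpf (adjusted p 1.32e-09).

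ccng1 (NM_199481), which encodes cyclin G1, was by far the most abundant of the genes per length and also the one that changed least. It had 757 and 754 RPKM in morphants at 4 hpf, against 774 and 759 RPKM in control embryos, and 789 and 782 RPKM in morphants at 6 hpf, against 741 and 736 RPKM in control embryos. At 4 hpf the log2 fold change was −0.02 ± 0.01 with an adjusted p of 0.135 in edgeR, and at 6 hpf it was 0.09 ± 0.01 with an adjusted p of 1.97e-06. Neither call held under the other scalings. At 4 hpf the gene was called lower in morphants with TMM (−0.10) and DESeq2 (−0.12), and at 6 hpf its change was 0.02 with TMM (adjusted p 0.231) and −0.01 with DESeq2 (adjusted p 0.458).

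The remaining genes act in cell death. bbc3 (NM_001045472), which encodes Puma, a BH3-only protein that binds the protective members of the Bcl-2 family, had 11.1 and 11.0 RPKM in morphants at 4 hpf, against 5.38 and 4.78 RPKM in control embryos. At 6 hpf it had 3.96 and 4.01 RPKM in morphants, against 1.49 and 1.47 RPKM in control embryos. The morphant libraries were thus more than 2-fold higher at both ages, with no overlap. The log2 fold change was 1.20 ± 0.08 at 4 hpf (adjusted p 1.07e-10, edgeR), which ranked 73 among all transcripts, and 1.52 ± 0.10 at 6 hpf (adjusted p 9.29e-12), which ranked 376 and was the largest change among the 7 genes at that age.

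baxa (NM_131562), which encodes Bax, a protein that opens the outer mitochondrial membrane, had 53.8 and 53.1 RPKM in morphants at 4 hpf, against 51.1 and 47.6 RPKM in control embryos. Later, at 6 hpf, it had 71.4 and 70.3 RPKM in morphants, against 52.0 and 53.8 RPKM in control embryos. At 4 hpf the gap between the nearest libraries of the groups, 53.1 and 51.1 RPKM, was smaller than that between the control libraries. At 6 hpf the gap between the nearest libraries of the groups was far larger. The log2 fold change of 0.12 ± 0.04 at 4 hpf had an adjusted p of 0.00649 in edgeR, but the call was lost with TMM (0.05, adjusted p 0.256), with DESeq2 (0.03, adjusted p 0.611) and without the second control library at 4 hpf (0.06, adjusted p 0.155). At 6 hpf the log2 fold change was 0.43 ± 0.03 (adjusted p 3.75e-10).

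casp8 (NM_131510), which encodes the caspase that starts cell death downstream of death receptors, had 39.2 and 36.7 RPKM in morphants at 4 hpf, against 31.0 and 31.7 RPKM in control embryos. The level at 6 hpf was 12.2 and 11.8 RPKM in morphants, against 6.93 and 6.83 RPKM in control embryos. The log2 fold change was 0.29 ± 0.05 at 4 hpf (adjusted p 4.28e-05, edgeR) and 0.85 ± 0.06 at 6 hpf (adjusted p 1.20e-10), without overlap at either age.

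**Figure D2:**
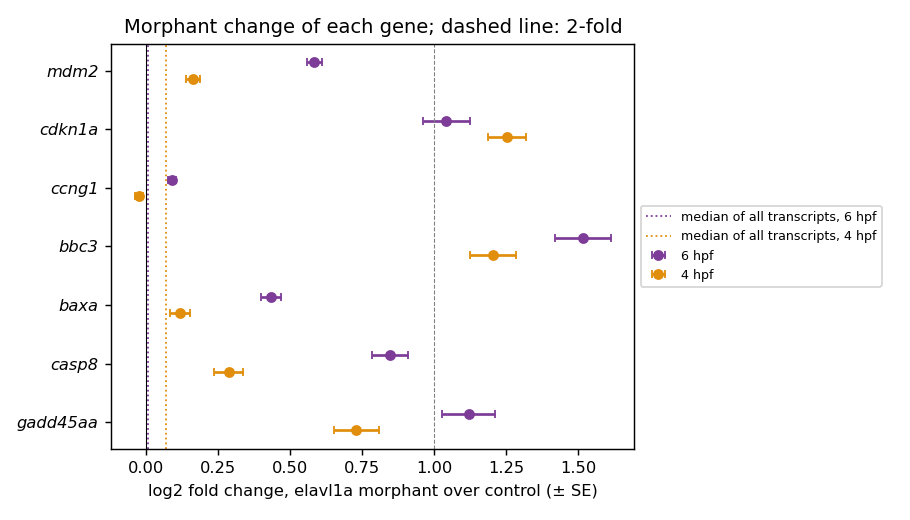
Log2 fold change of elavl1a morphants over control embryos (x axis, points with ± SE from the edgeR fit) for each of the 7 genes (y axis) at 6 hpf in purple and 4 hpf in orange; dotted lines are the medians of all transcripts and the dashed line marks 2-fold. cdkn1a and bbc3 lie beyond 2-fold at both ages, and the point for 6 hpf lies right of that for 4 hpf for every gene except cdkn1a.

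Whether the morphant change itself differed between the ages was tested as an interaction. The log2 change was higher at 6 hpf than at 4 hpf for 6 of the 7 genes at an adjusted p below 0.05, and lower for none. Of all transcripts, 35.3% were called with a higher and 38.8% with a lower log2 change at 6 hpf, 74.1% in all. These shares go by the sign of the difference, so a lower one can also be a deeper fall in morphants. None of the 7 genes differed by more than 2-fold, where 10.0% and 11.1% of all transcripts did. The difference of the log2 changes, 6 hpf minus 4 hpf, was 0.56 ± 0.08 for casp8, 0.42 ± 0.04 for mdm2, 0.39 ± 0.12 for gadd45aa, 0.31 ± 0.05 for baxa and 0.11 ± 0.02 for ccng1, with adjusted p from 1.15e-09 for mdm2 to 0.00747 for gadd45aa in edgeR. For bbc3 it was 0.31 ± 0.13 with an adjusted p of 0.0309, and this call was lost with DESeq2 (adjusted p 0.0558), with limma on log2(RPKM + 0.1) (0.26, adjusted p 0.0841) and in 6 of the 10 fits that left out a library, those without control replicate 1 or either morphant at 4 hpf, and without control replicate 2 or either morphant at 6 hpf. With limma on log2(RPKM + 1), a scale that compresses low levels, the bbc3 difference was only 0.02 (adjusted p 0.852). The call for gadd45aa was lost without morphant replicate 2 at 6 hpf (adjusted p 0.0523), and its difference was 0.24 with limma on log2(RPKM + 1). For cdkn1a the difference was −0.21 ± 0.11 with an adjusted p of 0.0815, which does not show that the change was equal at the 2 ages, and with limma on log2(RPKM + 1) it was −0.36 and called.

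In control embryos the same genes followed 3 courses. cdkn1a, bbc3 and gadd45aa were low at 2 hpf, highest at 4 hpf among the ages sampled, and lower again at 6 hpf. Mean levels at 2, 4 and 6 hpf were 0.344 ± 0.018, 10.8 ± 0.1 and 2.98 ± 0.02 RPKM for cdkn1a (SD, n = 2) and 0.314 ± 0.002, 5.08 ± 0.42 and 1.48 ± 0.02 RPKM for bbc3. At 2 hpf cdkn1a rested on only 56 and 52 unique reads and bbc3 on 82 and 92. gadd45aa was not listed at 2 hpf, in tables that list transcripts from 0.1 RPKM, and had 20.6 ± 0.7 and 6.06 ± 0.20 RPKM at 4 and 6 hpf. Against the listing limit it was at least 206-fold higher at 4 hpf than at 2 hpf.

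The log2 change of control embryos at 4 hpf against 2 hpf was 5.30 ± 0.11 for cdkn1a and 4.24 ± 0.12 for bbc3. In all, 5 of the 7 genes were called higher at 4 hpf and none lower, where 28.2% of all transcripts were called higher and 55.0% lower, 83.3% in either direction. cdkn1a, bbc3 and gadd45aa were past 2-fold higher, where 11.5% of all transcripts were past it upward and 15.6% downward. The others called were mdm2 with 0.72 ± 0.02 and ccng1 with 0.39 ± 0.01. mdm2 and ccng1 were already well expressed at 2 hpf, with 59.0 ± 0.4 and 590 ± 8 RPKM. At 6 hpf mdm2 was back at 54.6 ± 0.5 RPKM, against 96.0 ± 1.0 RPKM at 4 hpf, while ccng1 had 738 ± 4 RPKM, against 767 ± 10 RPKM.

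baxa and casp8 began at 50.4 ± 0.4 and 32.1 ± 2.0 RPKM at 2 hpf and had 49.3 ± 2.5 and 31.4 ± 0.5 RPKM in control embryos at 4 hpf. Their log2 changes of −0.04 and −0.05 had adjusted p of 0.309 and 0.389 in edgeR. After that they parted, since casp8 dropped to 6.88 ± 0.07 RPKM in control embryos at 6 hpf and baxa was at 52.9 ± 1.3 RPKM. At 6 hpf against 4 hpf, 6 of the 7 genes were lower in control embryos and 1 was higher, where 63.0% of all transcripts were called lower and 30.1% higher, 93.1% in either direction. The lower ones had log2 changes of −2.30 for casp8, −2.01 for cdkn1a, −1.88 for bbc3 and gadd45aa, −0.84 for mdm2 and −0.07 for ccng1. The first 4 were past 2-fold lower, where 40.8% of all transcripts were, with 14.4% past 2-fold higher. baxa was higher by 0.11 (adjusted p 0.00783, edgeR), a call lost without control replicate 2 at 4 hpf (0.05) or control replicate 2 at 6 hpf (0.08).

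The scaling matters more for these comparisons between ages, because another scaling moved the median log2 change of all transcripts by 0.25 (TMM) or 0.30 (DESeq2) for 4 against 2 hpf and by 0.57 or 0.74 for 6 against 4 hpf. With TMM and DESeq2, baxa (0.21 and 0.26) and casp8 (0.21 and 0.26) were called higher at 4 hpf than at 2 hpf, and ccng1 (0.51 and 0.67) was called higher at 6 hpf than at 4 hpf. The drop of mdm2 shrank to −0.26 and −0.10. cdkn1a, bbc3, gadd45aa and casp8 remained lower at 6 hpf than at 4 hpf by more than 1 on the log2 scale under both.

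**Figure D3:**
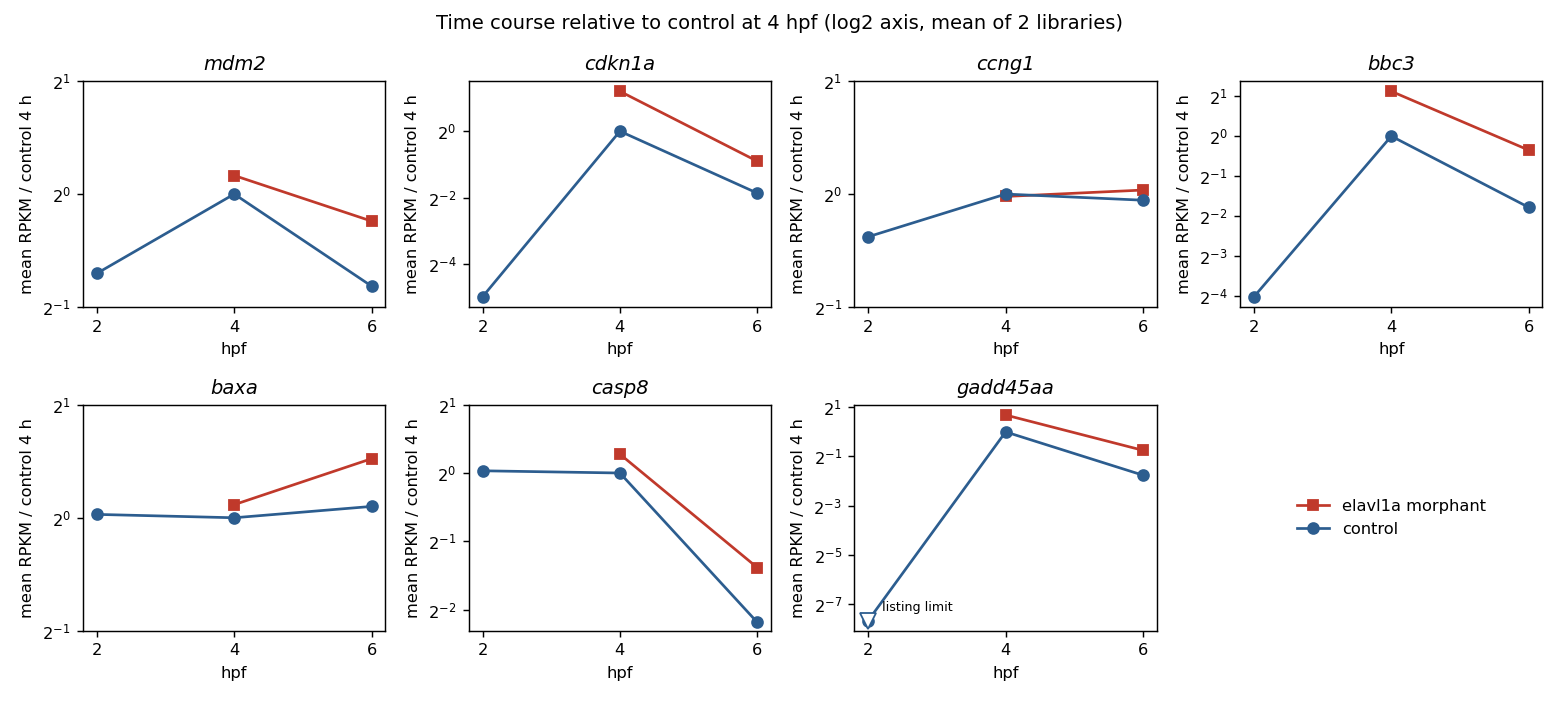
Mean RPKM of 2 libraries relative to control embryos at 4 hpf (y axis, log2 scale) against age in hpf (x axis) for elavl1a morphants (red squares) and control embryos (blue circles); the open triangle for gadd45aa marks the listing limit at 2 hpf. Among the ages sampled, cdkn1a, bbc3 and gadd45aa are highest at 4 hpf in control embryos. The morphants, measured at 4 and 6 hpf only, lie above these control levels at both ages. Only baxa and ccng1 have a higher morphant level at 6 hpf than at 4 hpf.

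The morphant levels were also set against the whole control course, in RPKM scaled by library totals. At 4 hpf both morphant libraries were above every control library of any age for 5 genes, mdm2, cdkn1a, bbc3, casp8 and gadd45aa. How many of all transcripts tested were placed in this way, at either age, was not counted. These counts therefore do not show anything particular to these genes. cdkn1a was 2.30 times and bbc3 2.17 times its control level at 4 hpf, the highest control level among the ages sampled. Levels between these ages are not known. At 6 hpf the same 5 genes lay between the control libraries at 6 and 4 hpf, with cdkn1a at 0.535 times, gadd45aa at 0.594 times, bbc3 at 0.785 times and mdm2 at 0.847 times the control level of 4 hpf. baxa and ccng1 were above every control library at 6 hpf, baxa at 1.34 times the control level of its age. For ccng1 the lowest morphant library at 6 hpf had 782 RPKM, against 774 RPKM in the highest control library. These placings depend on the scaling. With TMM and DESeq2 the morphant change of mdm2 at 6 hpf, at least 0.48 on the log2 scale, exceeded its control drop from 4 hpf. The same was so for bbc3. Both genes then lay above their control level of 4 hpf, and the change of ccng1 at 6 hpf was not called.

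With library totals as scaling, the drop between the ages was present in both treatments for cdkn1a, bbc3, gadd45aa, casp8 and mdm2. In morphants the level at 6 hpf was 0.233 times that at 4 hpf for cdkn1a, 0.361 times for bbc3, 0.369 times for gadd45aa, 0.316 times for casp8 and 0.756 times for mdm2. In control embryos the factors were 0.275 for cdkn1a, 0.291 for bbc3, 0.294 for gadd45aa, 0.220 for casp8 and 0.568 for mdm2. The differences between these factors are those tested by the interaction above. With TMM and DESeq2 the control drop of mdm2 was smaller than its interaction, which was 0.40 to 0.43 over all alternatives. So mdm2 did not drop in morphants under these scalings. The study describes the passage to sphere as moderately postponed in the morphants and gastrulation as delayed, so embryos of the same age in hours may not be of the same stage, and developmental stage and treatment cannot be told apart at either age.

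Genes that mark the embryo's own progress also differed between the groups. Their counts, here and in the next paragraph, stand beside the shares of all transcripts tested. These were 39.5% called higher and 22.9% lower at 4 hpf, and 40.6% higher and 39.0% lower at 6 hpf. At 4 hpf all 5 enveloping layer genes (krt4, krt5, krt8, cyt1 and cldne) and all 5 yolk syncytial layer genes (mxtx1, mxtx2, hnf4a, slc26a1 and mttp) were lower in morphants. The summed level of the yolk syncytial list was 115 and 115 RPKM in morphants, against 171 and 171 RPKM in control embryos, and that of the enveloping layer list 570 and 573 RPKM in morphants, against 901 and 896 RPKM in control embryos. Of 6 mesendoderm genes, 4 were lower (5 with TMM) and none was higher, and of 5 genes of the maternal store 4 (btg4, slbp2, buc and h1m) were higher and zar1 was lower. The mesendoderm list summed to 138 and 140 RPKM in morphants, against 220 and 216 RPKM in control embryos, and the maternal store to 2973 and 2997 RPKM in morphants, against 2456 and 2451 RPKM in control embryos. Of 5 germ plasm genes 3 were higher and none lower, but none was called with TMM.

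At 6 hpf the yolk syncytial list turned round, with all 5 genes higher and a sum of 353 and 351 RPKM in morphants, against 127 and 127 RPKM in control embryos. Of the mesendoderm genes 5 were higher and gsc was lower, while the enveloping layer list had 1 gene higher, 3 lower and 1 not called. The maternal store had 1 gene higher and 3 lower, and germ plasm 2 higher and 3 lower. The mesendoderm list summed to 756 and 765 RPKM in morphants, against 672 and 667 RPKM in control embryos, the enveloping layer list to 6363 and 6327 RPKM in morphants, against 6965 and 7013 RPKM in control embryos, and the maternal store to 208 and 217 RPKM in morphants, against 279 and 284 RPKM in control embryos. The part of these tissues in the changes of the p53 response genes was not tested.

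Both transcripts of mdm4, a relative of mdm2 that also restrains p53, stayed under 1.8 RPKM in every library and were not tested. Reads shared between transcripts of a gene can be lost in the counting, so these levels are uncertain. The higher one, NM_001328581, had 1.05 and 0.840 RPKM in morphants at 4 hpf, against 0.467 and 0.634 RPKM in control embryos, and 0.291 and 0.192 RPKM in morphants at 6 hpf, against 0.572 and 0.582 RPKM in control embryos.

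Of 58 further genes in 4 lists of p53 network regulators, arrest and stress targets, apoptosis genes, and repair and metabolism targets, 48 were listed and 40 transcripts were tested. At 4 hpf 20 were higher in morphants, 10 lower and 10 not called, with a median log2 change of 0.11. At 6 hpf 20 were higher, 15 lower and 5 not called, with a median of 0.11. These counts moved to 16 higher and 12 lower at 4 hpf and 17 and 16 at 6 hpf with TMM, where the medians were 0.04 and 0.03. Over all transcripts tested, 39.5% were higher and 22.9% lower at 4 hpf with a median of 0.07, and 40.6% were higher and 39.0% lower at 6 hpf with a median of 0.01, so the counts are near the background and say little about the pathway itself. The same shares apply to each list below. At 4 hpf 2 of the 40 transcripts were more than 2-fold higher and none was that much lower, where 1.45% and 2.27% of all transcripts were. At 6 hpf 3 were that much higher and 3 lower, where 10.3% and 8.62% of all transcripts were.

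Among the network regulators, 2 of 6 transcripts were higher and 1 lower at 4 hpf, and 4 were higher and 2 lower at 6 hpf. tp63 (NM_152986), a relative of p53 that acts in the epidermis, had 0.583 and 0.542 RPKM in morphants at 6 hpf, against 2.37 and 2.10 RPKM in control embryos (log2 change −2.13 ± 0.17, adjusted p 4.43e-10, edgeR). At 4 hpf it was higher in morphants by 0.69 ± 0.16. Reads shared with other transcripts of the gene make its level uncertain.

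Of 10 arrest and stress targets, 6 were higher and 4 lower at 4 hpf, and 4 were higher and 6 lower at 6 hpf. The relatives of gadd45aa did not all follow it. gadd45ga had 9.61 and 9.34 RPKM in morphants at 4 hpf, against 4.07 and 3.88 RPKM in control embryos (1.35 ± 0.08), but was lower in morphants at 6 hpf (−0.25). gadd45gb.1 was near the listing limit at 4 hpf, with 0.367 and 0.670 RPKM in morphants, against 0.240 and 0.230 RPKM in control embryos (1.62 ± 0.43). gadd45ba was lower in morphants at both ages, with 56.4 and 57.1 RPKM in morphants at 6 hpf, against 127 and 129 RPKM in control embryos (−1.20 ± 0.04, adjusted p 2.66e-16).

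Of 18 apoptosis genes, 10 were higher and 2 lower at 4 hpf, and 10 were higher and 4 lower at 6 hpf. The list joins genes that promote cell death with genes that restrain it, so its counts give no direction for cell death. Of the 4 lower at 6 hpf, pmaip1 (−0.78), baxb (−0.63), a relative of baxa, and bida (−0.60) promote it, and cflara (−0.76) restrains it. Of the 10 higher at 6 hpf, xiap (0.94), bcl2l1 (0.50), bcl2l10 (0.27) and mcl1b (0.13) restrain it. The rest of the 10, phlda3 (0.80), apaf1 (0.63), casp3a (0.49), perp (0.40), casp6a and tp53inp1, promote it. casp6a, an effector caspase, had 4.19 and 3.87 RPKM in morphants at 6 hpf, against 1.44 and 1.48 RPKM in control embryos (1.65 ± 0.22, adjusted p 6.91e-07, edgeR). tp53inp1, a target of p53 in mammals, had 11.6 and 10.9 RPKM in morphants at 6 hpf, against 5.28 and 5.57 RPKM in control embryos (1.103 ± 0.092).

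Of 6 repair and metabolism targets, 2 were higher and 3 lower at each age. At 6 hpf foxo3b, a transcription factor of the stress response, had 9.34 and 9.28 RPKM in morphants, against 2.14 and 2.36 RPKM in control embryos (2.16 ± 0.07, adjusted p 3.87e-16, edgeR). polh, a DNA polymerase that copies past lesions, had 4.89 and 5.17 RPKM in morphants, against 11.8 and 12.2 RPKM in control embryos (−1.34 ± 0.06, adjusted p 2.57e-14).

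Interferon response genes are another group that injected nucleic acid can switch on, and 3 of their 10 listed transcripts passed the filter. isg15, a ubiquitin-like protein, had 104 and 107 RPKM in morphants at 4 hpf, against 58.3 and 59.4 RPKM in control embryos, and 52.2 and 52.8 RPKM in morphants at 6 hpf, against 23.4 and 23.1 RPKM in control embryos. The log2 changes were 0.86 ± 0.04 and 1.23 ± 0.04. stat1a had 2.98 and 2.91 RPKM in morphants at 4 hpf, against 1.37 and 1.66 RPKM in control embryos (1.06 ± 0.14, adjusted p 1.03e-06, edgeR), and was not called at 6 hpf. mxa was lower in morphants at both ages, by −0.64 ± 0.18 at 4 hpf and −0.57 ± 0.13 at 6 hpf, so this list too had no common direction.

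**Figure D4:**
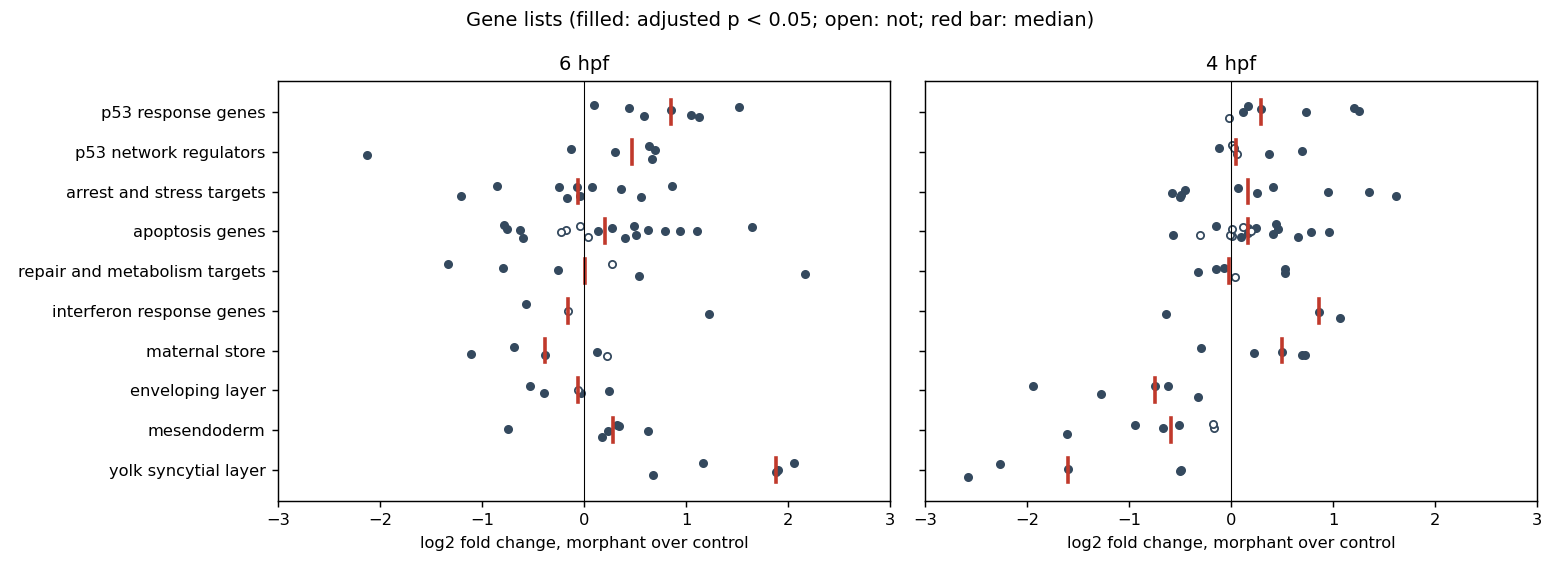
Log2 fold change of elavl1a morphants over control embryos (x axis) for the tested transcripts of each gene list (y axis) at 6 hpf (left) and 4 hpf (right); filled points passed an adjusted p of 0.05, open points did not, and the red bar is the median. The p53 response genes lie right of 0, except ccng1 at 4 hpf, the other p53 lists spread to both sides, and the yolk syncytial list lies right of 0 at 6 hpf and left of 0 at 4 hpf.

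The transcripts whose pattern over the 10 libraries was most like that of each gene were found by Pearson's r of log2(RPKM + 1), as a description. For cdkn1a these were fosab (r = 0.994) and bbc3 (0.991), and for bbc3 cdkn1a and fosab (0.982). fosab, an immediate early gene that encodes Fos, had a mean of 11.7 RPKM in morphants at 4 hpf, against 7.17 RPKM in control embryos, and 4.20 RPKM in morphants at 6 hpf, against 2.42 RPKM in control embryos. gadd45aa was most like igf2a (0.998) and osgn1 (0.994), casp8 like tmem30aa (0.999) and mak (0.998), and baxa like itgb1a (0.990) and yod1 (0.986). For mdm2 they were wu:fy63c09 (0.979) and plxna3 (0.976), and for ccng1 has2 (0.997) and znf800a (0.995). The points share library and depth, and except for baxa, itgb1a and yod1 most of the spread lies between ages. itgb1a and yod1 had 7.02 and 32.8 RPKM in morphants at 6 hpf, against 2.15 and 10.2 RPKM in control embryos.

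The icSHAPE libraries gave a second, unreplicated view of the levels, with no test possible. mdm2 had 69.8 RPKM in the morphant profile and 50.7 RPKM in the wild-type profile at 4 hpf, and 79.7 RPKM in the morphant and 46.0 RPKM in the wild-type profile at 6 hpf. The log2 ratio at 6 hpf was 0.79, above that of 99.3% of the 4300 transcripts listed in both profiles. cdkn1a had 19.9 RPKM in the morphant and 8.98 RPKM in the wild-type profile at 4 hpf, and gadd45aa 20.1 RPKM in the morphant and 8.86 RPKM in the wild-type profile. Their log2 ratios of 1.15 and 1.18 were above those of 99.4% and 99.5% of 6882 transcripts. But the lowest listed level at 4 hpf was 9.51 RPKM in the morphant and 3.48 RPKM in the wild-type profile. At such wild-type levels a transcript is listed in both profiles only if it is higher in the morphant one. The listing thus set the direction of these ratios, and their ranks are no independent check. cdkn1a and gadd45aa were listed in no other profile, and bbc3 was listed in none.

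The other genes differed less. ccng1 had 734 RPKM in the morphant and 676 RPKM in the wild-type profile at 4 hpf, and 942 RPKM in the morphant and 1018 RPKM in the wild-type profile at 6 hpf. baxa had 39.9 RPKM in the morphant and 39.5 RPKM in the wild-type profile at 4 hpf, and 30.9 RPKM in the morphant and 38.9 RPKM in the wild-type profile at 6 hpf, where its direction was opposite to that in RNA-seq. casp8 had 32.0 RPKM in the morphant and 30.7 RPKM in the wild-type profile at 4 hpf. At 6 hpf it was not listed in the morphant profile, whose lowest listed level was 13.4 RPKM, and had 8.96 RPKM in the wild-type profile, whose lowest was 3.95 RPKM.

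Over the wild-type stages mdm2 had 56.8, 64.0, 70.7, 61.6, 50.7 and 46.0 RPKM in the icSHAPE libraries at 0, 0.4, 1, 2, 4 and 6 hpf, so that its rise at 4 hpf in the RNA-seq control embryos was not seen there. ccng1 was highest at 0 hpf, with 1259 RPKM, and lowest at 2 hpf, with 616 RPKM. baxa had 74.5 RPKM at 0 hpf, less at each later stage and 38.9 RPKM at 6 hpf, and casp8 stayed between 22.0 and 31.8 RPKM up to 4 hpf before it dropped. Hence 4 of the 7 transcripts, mdm2, ccng1, baxa and casp8, were present in the egg. In these profiles cdkn1a and gadd45aa were listed at 4 hpf only, and bbc3 at no stage. The lowest listed level of the profiles up to 2 hpf was 3.48 to 4.16 RPKM, so lower levels would be missed. The RNA-seq control embryos of 2 hpf had means of 0.344 RPKM for cdkn1a and 0.314 RPKM for bbc3.

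Reactivity, a fraction from 0 for a protected to 1 for a flexible nucleotide, could be compared between morphant and wild type for mdm2, ccng1 and baxa at both ages and for casp8 at 4 hpf. At 4 hpf the mean over nucleotides valued in both was 0.301 in the morphant and 0.286 in the wild-type profile for mdm2, 0.257 and 0.252 for ccng1, 0.297 and 0.292 for baxa, and 0.322 and 0.306 for casp8. The differences, 0.0049 to 0.0159, lie inside the central range of the 3871 transcripts compared, whose median was 0.0038 with a 5th percentile of −0.0224 and a 95th of 0.0320. At 6 hpf the means were 0.259 in the morphant and 0.292 in the wild-type profile for mdm2, 0.220 and 0.233 for ccng1, and 0.257 and 0.310 for baxa. Most transcripts were lower in the morphant profile there, with a median of −0.0383 over 3327 transcripts and 2.25% of them higher, and the differences of −0.0327, −0.0128 and −0.0529 again lie inside the 5th to 95th percentile range of −0.0669 to −0.0084. Leaving out nucleotides at exactly 0 turned the differences of ccng1 (0.0146) and baxa (0.0076) at 6 hpf positive, and the median over all transcripts was then −0.00018, with 49.5% of them higher.

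**Figure D5:**
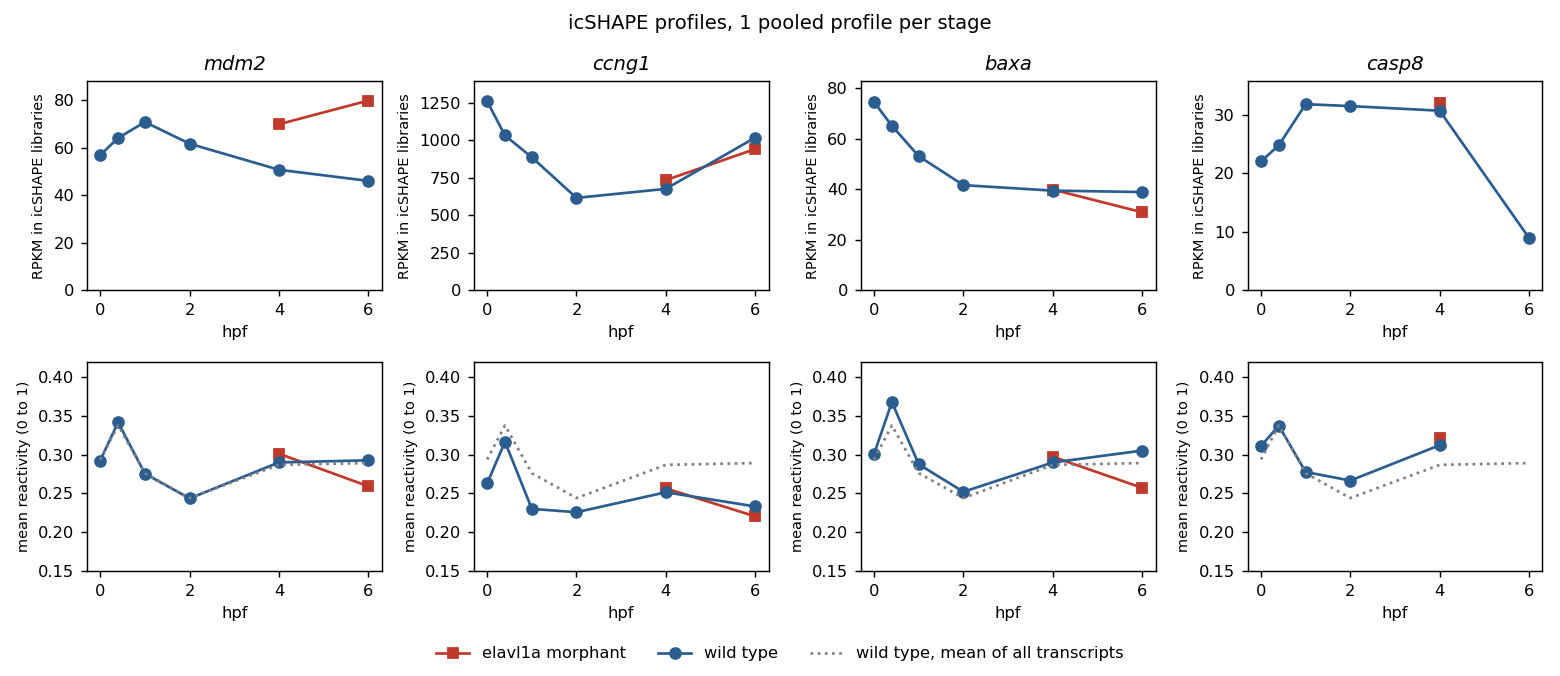
Level in RPKM (top row, y axis from 0) and mean reactivity (bottom row, y axis on part of the scale from 0 to 1) in the icSHAPE profiles against age in hpf (x axis) for mdm2, ccng1, baxa and casp8, with elavl1a morphants in red, wild type in blue and the wild-type mean of all transcripts dotted. The level of mdm2 is higher in the morphant profiles at both ages, and its reactivity in wild type runs along the dotted line.

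Among these genes ccng1 had a low reactivity. Its wild-type mean was 0.263, 0.317, 0.230, 0.226, 0.252 and 0.233 at 0, 0.4, 1, 2, 4 and 6 hpf, below the mean of all transcripts at each stage. Only 10.4% of its nucleotides differed by more than 0.2 between the morphant and wild-type profiles at 4 hpf and 17.7% at 6 hpf, a share smaller than in all but 2.63% and 2.49% of transcripts. ccng1 was also the most abundant of these genes, and the part of coverage in this share was not tested. By contrast, 31.4% of the nucleotides of baxa differed at 4 hpf and 41.0% at 6 hpf, and 34.7% of those of casp8 at 4 hpf, where the median transcript had 22.9% and 31.5% at the 2 ages.

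In disjoint windows of 10 nt, the largest difference in ccng1 lay at nucleotides 111 to 120 of NM_199481. The mean there was 0.640 in the morphant and 0.0712 in the wild-type profile at 6 hpf. The same window had 0.283 at 4 hpf and 0.667 at 2 hpf in wild type, which was also the largest fall of the transcript between these stages. Of 190 windows in ccng1, 8 were higher by more than 0.2 and 2 lower at 6 hpf (5.26%), against 9.05% of all 583142 windows. In baxa 7 of 149 windows were higher and 26 lower at 6 hpf (22.1%), and nucleotides 981 to 990 were higher in the morphant profile at both ages, with 0.665 in the morphant and 0.365 in the wild-type profile at 6 hpf and 0.568 in the morphant and 0.241 in the wild-type profile at 4 hpf. In mdm2 6 of 185 windows were higher and 8 lower at 6 hpf (7.57%), a share below that of all windows. With 1 profile per condition these windows have no replicate error, and they were singled out after their values were seen.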

How the data were processed

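RNA-seq was measured in 10 libraries of whole zebrafish embryos and icSHAPE in 8 pooled profiles. The authors trimmed reads with cutadapt and Trimmomatic, mapped them with Bowtie2 to RefSeq transcripts of zebrafish build Z10, filtered them by mapping quality, and deposited unique and multiple read counts and RPKM per transcript from 0.1 RPKM upwards, with multiple reads 1.60 to 2.75% of the total. The deposited icSHAPE files give RPKM and a reactivity fraction per nucleotide, made by the authors from combined replicates, after filters on coverage. Crosslinking data were not used here.

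All transcripts whose level averaged 1 RPKM or more were fitted with edgeR 4.0.16 (R 4.3.3) as 5 group means, with a quasi-likelihood test on unique counts, library totals as scaling and Benjamini-Hochberg adjustment. A change was called at an adjusted p below 0.05. The fit was tested on simulated data in which a small part of the transcripts differed in morphants at 4 hpf, equally in both directions. Such data do not probe the dependence of the calls on the scaling. Alternatives were TMM, DESeq2 1.42.0, limma 3.58.1 on log2(RPKM + 1) and log2(RPKM + 0.1), other filters, all mapped reads, only the groups compared, a replicate block and leaving out each library. Replicate pairs differed beyond counting noise (chi-square per degree of freedom 3.21 to 4.50). Symbols came from a RefSeq table for 98.0% of transcripts. Named from the lists were mdm4 and, in each list, up to 3 transcripts per direction with the largest change past the threshold and 2-fold, and 1 further gene is not reported here. mxa was added as the remaining interferon transcript after its values were seen. The apoptosis genes other than casp6a and tp53inp1 were also named after their values were seen. The genes, lists and tests were chosen with earlier results of these data known. Reactivity was averaged over nucleotides valued in both profiles, for transcripts valued at more than 50% of nucleotides.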

Additional observations from a re-analysis of the deposited data

Results flagged for a closer look

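The calls here come from the interaction test in edgeR with Benjamini-Hochberg adjustment. The morphant change differed between the ages for 6 p53 response genes and for 10 genes named from the lists by size of change. Of all transcripts tested, 74.1% were called in this test, and the 10 were picked by their change at 4 or 6 hpf. These counts therefore show nothing particular to these genes. As the log2 change at 6 hpf minus that at 4 hpf, the morphant change differed by 0.56 for casp8, 0.42 for mdm2, 0.39 for gadd45aa, 0.31 for baxa, 0.31 for bbc3 and 0.11 for ccng1. The value for bbc3 depends on the method, since it was 0.02 with limma on log2(RPKM + 1) (adjusted p 0.852) and not called with DESeq2 (adjusted p 0.0558). Larger changes at 6 hpf were also found for foxo3b (1.63), casp6a (1.53), tp53inp1 (0.67) and isg15 (0.37). The difference was negative for tp63 (−2.83), gadd45gb.1 (−2.48), gadd45ga (−1.60), stat1a (−1.22), polh (−1.02) and gadd45ba (−0.62). tp63, gadd45gb.1 and gadd45ga were higher in morphants at 4 hpf and lower at 6 hpf. Every RNA-seq group has 2 libraries, too few to examine single libraries as outliers.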

How the results depend on the processing

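The number of p53 response genes called stayed within 1.5 times under every alternative run, but an equal number can hold other genes. With TMM and with DESeq2, 6 were again called for morphants at 4 hpf, but 5 were higher and ccng1 was lower. baxa was not called there. In the fits without 1 library the number called was 5 to 6 for morphants at 4 hpf, 7 in all at 6 hpf and 4 to 6 for the interaction. For control embryos it was 5 to 6 at 4 against 2 hpf and 6 to 7 at 6 against 4 hpf. The count past 2-fold in morphants was 2 at 4 hpf and became 1 with limma on log2(RPKM + 1) and when the filter was raised to 5 RPKM, which leaves out bbc3. At 6 hpf it was 3 and became 1 with limma on log2(RPKM + 1) and on log2(RPKM + 0.1). There cdkn1a also dropped just under 2-fold with TMM and DESeq2. Of 301 single log2 changes under other settings 283 kept direction and call, and of 340 without 1 library 327 did. For many of the 340 the library left out was not part of the comparison, so the log2 change could hardly move. Reversed were, with TMM, baxa (0.21) and casp8 (0.21) at 4 against 2 hpf and ccng1 (0.51) at 6 against 4 hpf. With DESeq2 they were baxa (0.26), casp8 (0.26) and ccng1 (0.67) in the same comparisons and ccng1 in morphants at 6 hpf (−0.0105). Without 1 library, baxa at 4 against 2 hpf ranged from −0.10 to 0.0164 (positive without control replicate 2 at 4 hpf) and casp8 from −0.11 to 0.0202 (positive without control replicate 1 at 2 hpf). The cause was not tested. The interaction for cdkn1a was called with limma on log2(RPKM + 1) (−0.36), with limma on log2(RPKM + 0.1) (−0.26) and with all mapped reads (−0.24). That for bbc3 was 0.02 and 0.26 with the same limma settings and not called. The reactivity differences at 6 hpf turned positive for ccng1 (0.0146) and baxa (0.0076) without nucleotides at 0.

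Replicate numbers did not pair the libraries (correlation of replicate differences −0.031 to 0.056 between groups). With the replicate block, 6 genes were called for morphants at 4 hpf and 7 at 6 hpf, as without it, and no call changed. Peak height and overlap of crosslinking sites were not run, since sites could not be placed on these transcripts without an annotation of their build. Depth limits cdkn1a and bbc3 at 2 hpf, and gadd45aa there is known only as below 0.1 RPKM.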
